A study of Mus musculus with 13 samples.

Results

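The genes described here are Sprr2b, Sprr2d, Sprr2e and Sprr2f, 4 members of the small proline-rich 2 family in a cluster on mouse chromosome 3. Each was taken as the array feature whose only gene symbol is that of the gene. Every member had 1 such feature (TC0300000823.mm.1 for Sprr2b, TC0300000824.mm.1 for Sprr2d, TC0300000825.mm.1 for Sprr2e and TC0300000826.mm.1 for Sprr2f), so the 4 members are 4 of 30142 genes with a feature of their own. The members were picked by name, with earlier results of these data known. Because Sprr2 genes are close copies of each other and the probes behind the features were not used here, a feature may also take up RNA of a neighbouring copy, and the values of single members are uncertain to that extent.

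The study addressed the effects of estrogen, of a fatty diet and of their combination on gene expression in the mouse endometrium. The values come from 13 female C57BL/6 mice, each with 1 array. All mice, controls included, had both ovaries removed at 6 to 8 weeks of age and were then kept for 12 weeks under 1 of 4 conditions. CON mice ate normal chow without a pellet (n = 3), E2 mice ate chow and carried a subcutaneous pellet releasing 17-β estradiol (n = 4), HD mice ate a high-fat diet without a pellet (n = 3), and MIX mice had both the pellet and the high-fat diet (n = 3). RNA came from tissue scraped off the opened uterus, so it holds whatever cells the scraping took along. The values are log2 expression, in which a step of 1 is a doubling.

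Small proline-rich proteins are precursors of the cornified envelope, the tough protein layer under the membrane of terminally differentiated squamous cells. Transglutaminases cross-link them to loricrin, involucrin and other envelope proteins. Sprr2 genes are also expressed in simple epithelia, where they are known as stress and injury responders, and in the uterus they are known as estrogen-responsive genes of the epithelium.

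The promoters are shown because the 4 members lie close together, vary together between mice and share short elements at almost the same distances from their starts. Each sequence is the 300 bases from 250 before to 50 after the annotated start, on the plus strand of GRCm38.p6, as given by RefSeq. They lie at chr3:92316455-92316754 (Sprr2b), chr3:92338890-92339189 (Sprr2d), chr3:92351893-92352192 (Sprr2e) and chr3:92364937-92365236 (Sprr2f). Capitals mark, from left to right, TGAGTCA (the AP-1 element), ATTTGCAT (the octamer) and TATAAA (the TATA box).
Sprr2b: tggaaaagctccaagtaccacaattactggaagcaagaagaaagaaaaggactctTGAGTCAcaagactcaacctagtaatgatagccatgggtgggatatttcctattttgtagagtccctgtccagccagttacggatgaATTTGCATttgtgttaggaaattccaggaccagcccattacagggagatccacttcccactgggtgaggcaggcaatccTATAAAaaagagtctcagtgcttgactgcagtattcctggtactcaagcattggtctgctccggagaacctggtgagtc
Sprr2d: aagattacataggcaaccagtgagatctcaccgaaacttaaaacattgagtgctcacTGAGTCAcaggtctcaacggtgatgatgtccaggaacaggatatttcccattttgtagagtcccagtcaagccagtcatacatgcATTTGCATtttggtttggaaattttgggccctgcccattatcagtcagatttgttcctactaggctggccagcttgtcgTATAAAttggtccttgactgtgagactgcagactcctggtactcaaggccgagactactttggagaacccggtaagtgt
Sprr2e: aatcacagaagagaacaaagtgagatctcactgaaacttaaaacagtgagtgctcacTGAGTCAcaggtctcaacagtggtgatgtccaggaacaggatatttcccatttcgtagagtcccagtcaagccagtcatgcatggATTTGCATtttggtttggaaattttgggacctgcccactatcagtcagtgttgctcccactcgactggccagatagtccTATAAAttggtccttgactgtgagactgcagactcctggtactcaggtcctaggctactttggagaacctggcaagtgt
Sprr2f: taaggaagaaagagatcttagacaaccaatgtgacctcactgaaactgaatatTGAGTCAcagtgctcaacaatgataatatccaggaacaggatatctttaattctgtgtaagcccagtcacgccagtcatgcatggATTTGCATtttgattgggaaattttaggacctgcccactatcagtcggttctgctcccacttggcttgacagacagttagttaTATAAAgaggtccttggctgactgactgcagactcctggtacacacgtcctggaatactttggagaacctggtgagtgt

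The TATA box began at position -29 from the start in all 4 promoters. The octamer began at -108 in Sprr2b, Sprr2d and Sprr2e and at -112 in Sprr2f. The AP-1 element, the letters read by Fos and Jun proteins, began at -195 in Sprr2b, at -193 in Sprr2d and Sprr2e and at -197 in Sprr2f. Searched on both strands, TGAGTCA was present in 5.20% of 32851 RefSeq promoters of the same length, ATTTGCAT in 1.74% and TATAAA in 13.6%. All 3 together were present in 12 promoters (0.0365%), among them the 4 members and 3 other Sprr genes, Sprr2h, Sprr2i and Sprr2k.

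Letters of hormone and cytokine elements were searched in the same windows. The palindromic estrogen response element GGTCANNNTGACC was found in none of the 4 windows and in 0.0700% of all promoters. The estrogen receptor half-site AGGTCA was found in Sprr2f, at -219 on the minus strand, and not in the windows of the other members. It was present in 16.3% of all promoters. The STAT spacings TTCNNNGAA and TTCNNNNGAA were in none of the 4 windows and in 8.30% and 6.95% of all promoters. These are matches of letters, and whether a protein binds there was not tested. In pairwise alignments the promoters of Sprr2d and Sprr2e were the closest, with 88.7% identical columns, and the 3 pairs with Sprr2b the most distant, at 63.1% to 65.3%.

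Array values can be compared as RNA levels between mice for 1 feature and not between features, where they rank signal only. Sprr2b averaged above 97.3% of features, Sprr2d above 86.0%, Sprr2e above 69.4% and Sprr2f above 99.4%. The arrays' medians lay between 4.48 and 4.71. The epithelial markers Epcam (9.96 to 10.9) and Krt8 (10.9 to 11.6) were bright in all 13 mice, so epithelial RNA was present in every sample. On the first principal component (33.4% of the variance) MIX replicate 3 (102.5) and E2 replicate 1 (47.0) lay at the far end, and MIX replicate 2 stood apart on the second (72.2, next 20.1). Animal codes come in a numbered style (7 mice) and a lettered style (6 mice, among them all 3 MIX mice), and what the styles mean is not stated in these sources. Differences below come from a limma fit of the 4 groups with the code style as a covariate, which is estimated from 1 lettered mouse in each of CON, E2 and HD. In CON the lettered mouse is replicate 3. The standard error (SE) and p-values of the fit rest on the spread between these mice, which limma moderates with that of all features. The style term, lettered minus numbered, was -1.13 (SE 0.78) for Sprr2b and -0.75 (SE 0.81) for Sprr2d. It was -0.15 (SE 0.47) for Sprr2e and -0.32 (SE 0.38) for Sprr2f.

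Sprr2b encodes a cornified envelope precursor and had its lowest group mean in CON and its highest in MIX. The CON mice had log2 values of 9.34, 8.57 and 6.73, and the HD mice 8.16, 10.7 and 10.8. The E2 mice had 11.6, 10.9, 10.3 and 8.54, and the MIX mice 11.5, 10.5 and 12.6. All 3 MIX mice lay above all 3 CON mice, while E2 and HD overlapped with every other group. The means were 8.21 ± 1.35 (SD, n = 3) in CON, 9.88 ± 1.497 (n = 3) in HD, 10.3 ± 1.31 (n = 4) in E2 and 11.6 ± 1.05 (n = 3) in MIX. Neighbours in this order overlapped in each case, and the spread within a group, 2.10 to 3.08 from lowest to highest mouse, exceeded the steps between neighbouring means.

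Sprr2d, another envelope precursor of the same cluster, had the widest range of the members over the 13 mice, 7.08 log2 units. Its values were 6.91, 5.17 and 4.23 in CON and 5.72, 6.92 and 7.17 in HD. They were 9.17, 7.86, 8.35 and 7.23 in E2 and 9.11, 7.23 and 11.3 in MIX. Every mouse with a pellet lay above every mouse without one, by a narrow gap: the lowest pellet mice, E2 replicate 4 and MIX replicate 2, were both at 7.23 and the highest mouse without a pellet, HD replicate 3, at 7.17. The means were 5.43 ± 1.36 in CON, 6.60 ± 0.78 in HD, 8.15 ± 0.82 in E2 and 9.22 ± 2.04 in MIX, the last with a range of 4.07 among 3 mice.

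Sprr2e had the dimmest feature of the members, and its group means spanned about 1 log2 unit. CON mice had 5.43, 5.35 and 5.002, and HD mice 5.01, 5.71 and 6.20. E2 mice had 6.59, 6.40, 5.75 and 5.42, and MIX mice 5.96, 5.29 and 7.68. All groups overlapped, and MIX replicate 3 alone lay above every other mouse. The order of the means was again CON (5.26 ± 0.23), HD (5.64 ± 0.60), E2 (6.04 ± 0.55) and MIX (6.31 ± 1.24), with no neighbours separated beyond their spread.

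Sprr2f was among the brightest features of the arrays in every group. Its values were 11.8, 10.9 and 10.1 in CON and 11.4, 12.3 and 12.6 in HD. They were 12.3, 12.6, 11.7 and 11.8 in E2 and 12.5, 11.7 and 12.5 in MIX. CON was lowest on average (10.9 ± 0.84) but its replicate 1 lay within the range of the other groups. The means of E2 (12.1 ± 0.42), HD (12.1 ± 0.65) and MIX (12.2 ± 0.45) differed by less than the spread within any of these groups.

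**Figure D1:**
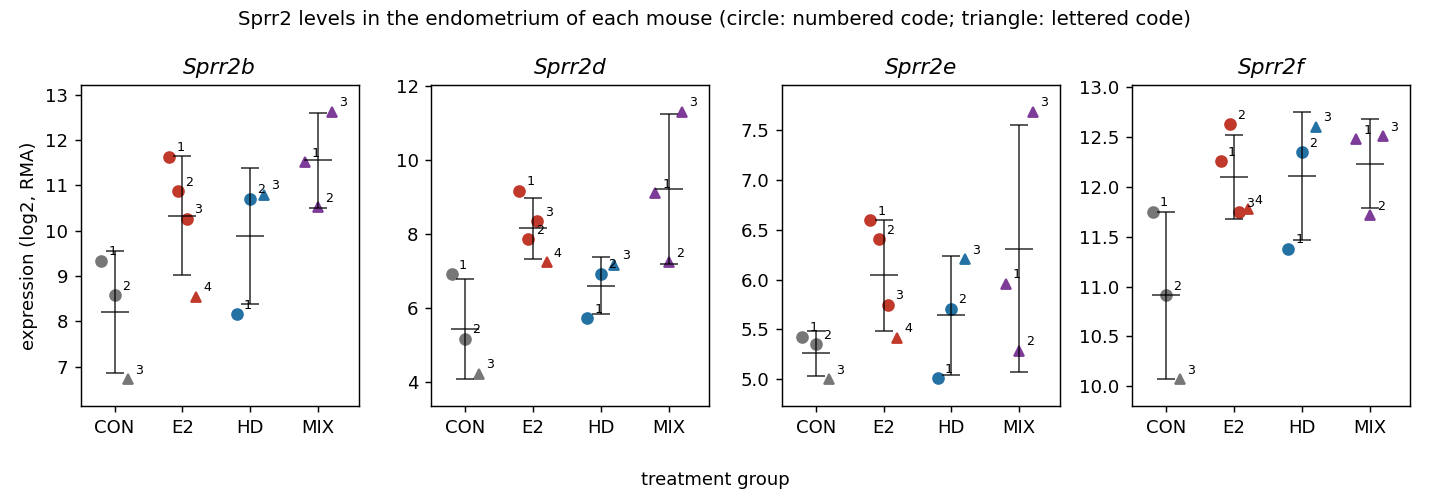
Log2 expression of the 4 Sprr2 members in each mouse (points, numbered by replicate), by group on the horizontal axis, with bars for the group mean and its SD. CON replicate 3 is the lowest of 13 mice in every panel, and the Sprr2d panel shows the 7 pellet mice just above the 6 mice without a pellet.

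On chow, E2 was set against CON to read the effect of estradiol. All 4 members were higher in E2, by 2.02 (SE 0.86) for Sprr2b, 2.66 (SE 0.90, a fold of 6.31) for Sprr2d, 0.77 (SE 0.52) for Sprr2e and 1.16 (SE 0.42) for Sprr2f. None passed an adjusted p under 0.05 (adjusted p = 0.9998 for each, limma with Benjamini-Hochberg adjustment over 65929 features), where limma called 0% of all features, with 2651 features at an unadjusted p under 0.05. At an unadjusted p under 0.05 in limma 3 members were higher, Sprr2b, Sprr2d and Sprr2f, against 1.93% of all features. The groups did not overlap for 1 member, Sprr2d, against 3.01% of features with E2 higher throughout. Within the numbered mice (2 CON, 3 E2) the differences were 1.96, 2.42, 0.86 and 0.88 in the same order. Without CON replicate 3 the differences were 1.52 for Sprr2b, 2.18 for Sprr2d and 0.74 for Sprr2f. Sprr2b and Sprr2d were then no longer under 0.05 (unadjusted p = 0.1624 and 0.06884 in limma). Without CON replicate 2 their unadjusted p in limma was 0.0871 and 0.05588.

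HD was set against CON to read the diet without estradiol. The members were higher in HD by 1.67 (SE 0.92) for Sprr2b, 1.17 (SE 0.96) for Sprr2d, 0.38 (SE 0.56) for Sprr2e and 1.20 (SE 0.44) for Sprr2f. None passed (adjusted p = 1 in limma for each), where limma called 0% of features and 1918 had an unadjusted p under 0.05. Sprr2f alone of the members was higher at an unadjusted p under 0.05 in limma, against 1.99% of features. For none of the members did HD and CON separate, where 5.58% of features had HD higher without overlap. The values depended on single mice in both directions. Without HD replicate 3 they were 0.45 for Sprr2b, 0.39 for Sprr2d, -0.11 for Sprr2e and 0.68 for Sprr2f, and without HD replicate 1 they were 2.81, 1.79, 0.75 and 1.65. Sprr2d was also at 1.84 without CON replicate 1 and 0.65 without CON replicate 3, and Sprr2f at 0.74 without CON replicate 3. Within the numbered mice (2 CON, 2 HD) the differences were 0.47, 0.28, -0.03 and 0.53.

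The comparison of MIX with CON sets both treatments against neither. It gave the widest differences of the members, 4.09 (SE 1.05, a fold of 17.1) for Sprr2b and 4.28 (SE 1.10, a fold of 19.4) for Sprr2d. Sprr2f was higher by 1.54 (SE 0.51) and Sprr2e by 1.15 (SE 0.64). The 95% intervals ran from 1.76 to 6.43 for Sprr2b and from 1.84 to 6.73 for Sprr2d. In limma the adjusted p was 0.357 for Sprr2b, 0.3582 for Sprr2d, 0.4555 for Sprr2f and 0.6826 for Sprr2e, so none passed, and 0.00303% of all features did. At an unadjusted p under 0.05 in limma 3 members were higher, Sprr2b, Sprr2d and Sprr2f, against 3.7% of features. MIX and CON did not overlap for Sprr2b and Sprr2d, against 5.52% of features with MIX higher throughout. Plain differences of the group means, without the code style term, were smaller, at 3.34 for Sprr2b, 3.78 for Sprr2d, 1.05 for Sprr2e and 1.32 for Sprr2f. Without MIX replicate 3 the Sprr2e difference was 0.46, and without CON replicate 3 the Sprr2f difference was 0.79.

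MIX was also set against each treatment alone. Against HD, which asks what the pellet adds on the high-fat diet, Sprr2d was higher by 3.11 (SE 1.10, a fold of 8.65) and Sprr2b by 2.42 (SE 1.05). Sprr2e was higher by 0.77 (SE 0.64), and for Sprr2f the difference was 0.34 with a 95% interval from -0.79 to 1.47. The adjusted p in limma lay between 0.6849 (Sprr2d) and 0.8948 (Sprr2f), where 0.00455% of features were called. At an unadjusted p under 0.05 in limma 2 members were higher, Sprr2b and Sprr2d, against 2.41% of features, and only for Sprr2d of the members did the groups separate, against 3.47%. Among the lettered mice alone (1 HD, 3 MIX) the differences were 0.76 for Sprr2b, 2.05 for Sprr2d, 0.11 for Sprr2e and -0.37 for Sprr2f. Without HD replicate 3 they were 4.43 for Sprr2b, 4.40 for Sprr2d, 1.57 for Sprr2e and 1.20 for Sprr2f. Without MIX replicate 3 they were 2.07 for Sprr2d, 0.083 for Sprr2e and 0.21 for Sprr2f, and without MIX replicate 2 they were 1.28 for Sprr2e and 0.60 for Sprr2f. With HD replicate 1 omitted Sprr2f was at 0.032, with CON replicate 3 omitted at 0.048, with CON replicate 1 omitted at 0.21 and with MIX replicate 1 omitted at 0.22. Plain differences of the group means were 1.67 for Sprr2b, 2.61 for Sprr2d, 0.67 for Sprr2e and 0.13 for Sprr2f, and in the limma fit without the code style term Sprr2b had an unadjusted p of 0.1094.

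Against E2, which asks what the diet adds to the pellet, the members were higher in MIX by 2.08 (SE 1.04) for Sprr2b, 1.62 (SE 1.09) for Sprr2d, 0.38 (SE 0.63) for Sprr2e and 0.38 (SE 0.50) for Sprr2f. The adjusted p in limma was 0.9999 for each, with 0% of features called and 1832 at an unadjusted p under 0.05. No member was higher at an unadjusted p under 0.05 (1.25% of features were), and for none of the members did the groups separate (1.5% of features did). Plain differences of the group means were smaller, at 1.23 for Sprr2b, 1.06 for Sprr2d, 0.27 for Sprr2e and 0.13 for Sprr2f. Without E2 replicate 4 the differences were 1.07 for Sprr2b and -0.17 for Sprr2e. Without MIX replicate 3 they were 0.58 for Sprr2d, -0.30 for Sprr2e and 0.24 for Sprr2f, and without MIX replicate 2 they were 2.62, 0.89 and 0.64. Omitting CON replicate 3 put Sprr2f at 0.044 and omitting CON replicate 1 at 0.23, while omitting HD replicate 3 put Sprr2e at 0.74 and Sprr2f at 0.75. Among the lettered mice alone (1 E2, 3 MIX) they were 3.01, 1.98, 0.89 and 0.46 in the order Sprr2b, Sprr2d, Sprr2e and Sprr2f.

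Averaged over both diets, the pellet difference was 2.89 (SE 0.70, a fold of 7.39) for Sprr2d and 2.22 (SE 0.67, a fold of 4.66) for Sprr2b. Sprr2e followed with 0.77 (SE 0.41) and Sprr2f with 0.75 (SE 0.32). The adjusted p in limma was 0.2622, 0.3488, 0.5543 and 0.4811 in that order, so none passed, and 0.0167% of features did. Sprr2d, Sprr2b and Sprr2f were higher at an unadjusted p under 0.05 in limma, against 3.73% of features. Sprr2d was the member in which the 7 pellet mice and the 6 others did not overlap, which held for 0.344% of features. Among the lettered mice alone the averaged differences were 1.29 for Sprr2b and 2.53 for Sprr2d, and 0.26 and 0.67 for Sprr2e and Sprr2f. Without MIX replicate 3 the Sprr2e value was 0.43, and the Sprr2f value was 0.40 when CON replicate 3 was left out and 1.16 when HD replicate 3 was.

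The interaction, which subtracts the pellet difference on chow from the pellet difference under the fatty diet, was 0.41 (SE 1.38) for Sprr2b, 0.45 (SE 1.45) for Sprr2d, 0.00 (SE 0.84) for Sprr2e and -0.82 (SE 0.67) for Sprr2f. The adjusted p in limma was 0.9998 for each member, with 0% of features called and 1382 at an unadjusted p under 0.05. The 95% intervals were wide, from -2.66 to 3.47 for Sprr2b and from -2.31 to 0.66 for Sprr2f. Without the code style term the values were -0.45, -0.11, -0.11 and -1.07 in the order of the first sentence. Sprr2f was at 0.075 without HD replicate 3, so these mice do not settle the sign for any member.

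**Figure D2:**
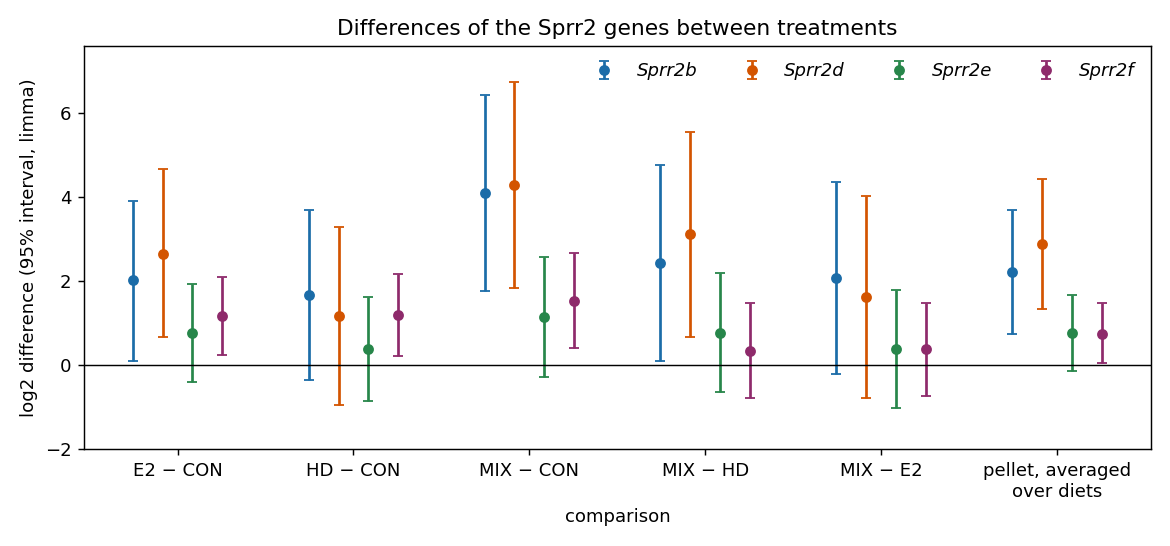
Log2 differences of the 4 members (vertical axis) in each comparison (horizontal axis) from the limma fit, with lines for the 95% interval. All 4 members lie above 0 in every 2-group comparison, with Sprr2b and Sprr2d farthest in MIX minus CON, and none passes an adjusted p under 0.05.

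The comparisons with CON share the same 3 control mice, and CON replicate 3 had the lowest value of all 13 mice for each of the 4 members. MIX replicate 3 had the highest value for Sprr2b, Sprr2d and Sprr2e, while E2 replicate 2 was highest for Sprr2f. Averaged over the members after centring each on its own mean, CON mice stood at -0.42, -1.28 and -2.27 and HD mice at -1.22, 0.14 and 0.41. E2 mice stood at 1.13, 0.66, 0.25 and -0.54 and MIX mice at 0.98, -0.09 and 2.25. Within a group this mean ranged over 1.63 (HD) to 2.34 (MIX) log2 units.

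The members varied together from mouse to mouse. Over the 13 mice the Pearson correlation of their levels was highest for Sprr2b with Sprr2d (0.90) and lowest for Sprr2e with Sprr2f (0.70), and Spearman's rho ran from 0.64 to 0.91 over the 6 pairs. Without the 2 mice farthest from the median the Pearson values were 0.69 to 0.84. After subtracting the group means they were 0.65 to 0.86, so the members also varied together within groups. These are descriptions: the features come from the same arrays and may share probes with near copies. The correlations did not follow promoter likeness: the most distant promoters, of Sprr2b and Sprr2f, went with a correlation of 0.88, the closest, of Sprr2d and Sprr2e, with 0.87, and those of Sprr2e and Sprr2f (74.8% identity) with 0.70.

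The rest of the family lies in the same chromosome 3 cluster, where 17 Sprr genes follow each other from Sprr2a1 to Sprr4. Besides the members, 9 had a feature of their own. Features with several Sprr2a symbols were not assigned to a gene. In MIX against CON 8 of the 9 had positive differences, with a median of 0.14 against -0.03 over all features, and none passed in limma. That median was 0.016 without MIX replicate 3, 0.24 without MIX replicate 1, 0.51 without MIX replicate 2, 0.061 without the code style term and 1.09 with dim features left out. Sprr1a, an envelope precursor of the related small proline-rich 1 group, was at 8.07, 8.38 and 6.24 in CON, 7.08, 7.56 and 8.22 in HD, 9.86, 9.30, 7.50 and 7.86 in E2, and 10.97, 9.19 and 9.78 in MIX. Its MIX mice lay above all CON and all HD mice, where 5.52% and 3.47% of all features had MIX higher without overlap. The limma difference of Sprr1a was 2.89 (SE 0.82, adjusted p = 0.4058) against CON and 2.84 (SE 0.82, adjusted p = 0.6539) against HD. Between HD and CON its difference was 0.06 (SE 0.71).

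Sprr2h, Sprr2i and Sprr2k carry the same 3 promoter elements as the members. Sprr2h was higher in MIX than in CON by 1.09 (SE 0.38, adjusted p = 0.4723 in limma), with no overlap between the groups. Sprr2i also had all MIX mice above all CON mice, and 5.52% of all features had MIX higher without overlap. Sprr2g, annotated as a transcribed pseudogene, gave -0.70 (SE 0.49) for HD against CON and 0.07 (SE 0.56) for MIX against CON. Sprr2i and Sprr2j-ps differed by 0.51 (SE 0.25) and 0.48 (SE 0.22) between MIX and CON, and Sprr2k by 0.14 (SE 0.18). Sprr1b, Sprr3 and Sprr4 lay between -0.16 and 0.084. Sprr2i, Sprr2j-ps, Sprr2k, Sprr1b, Sprr3 and Sprr4 had group means near or below the arrays' medians, where differences are compressed.

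**Figure D3:**
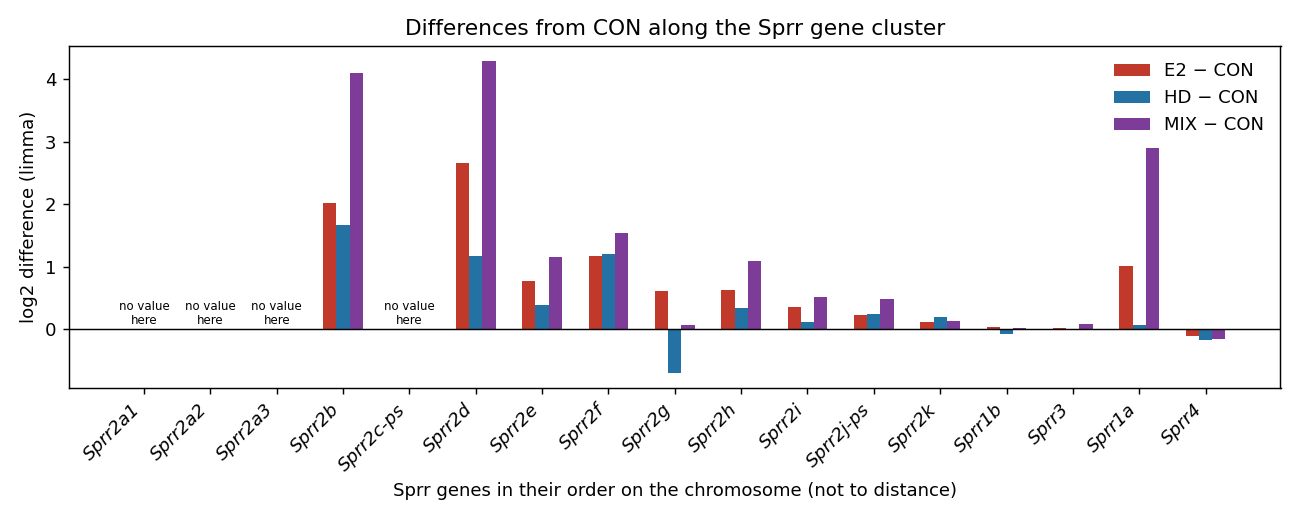
Log2 differences from CON (vertical axis) for E2, HD and MIX across the Sprr cluster in chromosomal order (horizontal axis, not to scale), with genes that had no feature of their own marked. Sprr2b, Sprr2d and Sprr1a have the largest MIX differences, and the genes from Sprr2k to Sprr3 stay near 0.

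The partners of these proteins in the cornified envelope were read from a list of 35 measured envelope proteins and transglutaminases. In MIX against CON 22 had positive and 13 negative differences, with a median of 0.19 against -0.03 over all features, and none passed in limma. Of the 35, 6 were higher and 0 lower at an unadjusted p under 0.05 in limma, against 8.34% of features in either direction. The median was 0.068 without MIX replicate 1, 0.072 without MIX replicate 3, 0.12 without CON replicate 3 and 0.36 without MIX replicate 2. The lowest p belonged to Pkp1, a desmosomal plakophilin, with 0.96 (SE 0.27), and to Cnfn, which encodes the envelope component cornifelin, with 2.53 (SE 0.70; adjusted p = 0.3907 and 0.3909 in limma). The 4 transglutaminases of the list differed by 1.90 (SE 0.53) for Tgm2, 1.53 (SE 0.64) for Tgm1, 1.06 (SE 0.34) for Tgm5 and -0.08 (SE 0.09) for Tgm3. For envelope proteins of skin the MIX minus CON differences were -0.03 (SE 0.10) for Lor, which encodes loricrin, 0.30 (SE 0.28) for Ivl, which encodes involucrin, and -0.07 (SE 0.11) for Flg, which encodes filaggrin. Over all mice Lor lay between 5.29 and 5.71, Ivl between 4.40 and 5.63 and Flg between 6.61 and 7.06.

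Among 25 measured markers of stratified squamous epithelium, 2 rose with the pellet averaged over diets at an adjusted p under 0.05 in limma, where 0.0167% of all features passed. Both are keratins: Krt13 by 2.54 (SE 0.28, adjusted p = 0.02959) and Krt15 by 1.67 (SE 0.19, adjusted p = 0.04002). Krt13, the keratin of moist stratified epithelia, was at 6.93 ± 0.34 in CON, 6.68 ± 0.13 in HD, 8.56 ± 0.58 in E2 and 10.1 ± 0.70 in MIX. In MIX against HD Trp63, the master regulator of basal squamous cells, rose by 0.84 (SE 0.08, adjusted p = 0.0265 in limma), from a level near the arrays' medians, where 0.00455% of all features passed. In MIX against CON 24 of 25 differences were positive, against 42.5% over all features, with a median of 0.85, and none passed in limma. The median was 0.66 without MIX replicate 1, 0.655 without MIX replicate 3, 0.72 without E2 replicate 4 and 1.28 without MIX replicate 2. In that comparison 14 markers were higher and 1 lower (Klf5, -0.25, SE 0.11) at an unadjusted p under 0.05 in limma. Under 0.05 in either direction were 8.34% of all features. Leaving out each of the 13 mice in turn, the calls of Krt13, Krt15 and Trp63 were each lost in 10 cases. They held without E2 replicate 3, MIX replicate 1 or MIX replicate 2. The values stayed at 2.37 to 2.74 for Krt13, 1.48 to 1.80 for Krt15 and 0.79 to 0.92 for Trp63. The mean log2 level of the list was 6.00 to 6.15 in CON, 6.01 to 6.19 in HD, 6.18 to 6.88 in E2 and 6.53 to 7.73 in MIX. It correlated with the members' mean at 0.77 over the 13 mice, and its part in their values was not tested.

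Known estradiol targets of the uterine epithelium included 1 gene that passed. Olfm4, which encodes the secreted glycoprotein olfactomedin 4, rose with the pellet averaged over diets by 4.29 (SE 0.37, adjusted p = 0.00989 in limma), the 1 of 31 measured targets to do so, against 0.0167% of all features. The call was lost without CON replicate 2, CON replicate 3 or HD replicate 1, with values of 4.08 to 4.64 over the 13 mice left out in turn. It was at 4.94 ± 0.23 in CON, 4.96 ± 0.16 in HD, 8.30 ± 1.14 in E2 and 9.78 ± 0.61 in MIX. In MIX against CON 21 of 31 targets were higher, against 42.5% of all features, with a median of 0.50, none passing in limma. The median was 0.23 without CON replicate 3 and 0.80 with the lettered mice only. Agr2, a disulfide isomerase of secretory cells, differed there by 3.69 (SE 0.98, adjusted p = 0.3706). At an unadjusted p under 0.05 in limma 9 targets were higher there and 3 lower, against 8.34% of features in either direction. The 3 lower targets were Wnt7a (-1.605, SE 0.51), Pgr (-1.14, SE 0.49) and Wfdc2 (-0.63, SE 0.23). The mean level of the list correlated with that of the members at 0.92. By contrast the 23 measured markers of luminal and glandular epithelium split 13 higher and 10 lower, with a median of 0.10, which turned to -0.045 without MIX replicate 1, -0.007 without CON replicate 3, -0.006 without E2 replicate 4 and -0.021 with the replicate number as a block. Without MIX replicate 3 it was 0.019, and without CON replicate 2 and HD replicate 3 it was 0.061 and 0.16. Their mean level, 8.62 to 8.74 in CON and 8.50 to 9.19 in MIX, correlated with the members at -0.24. At an unadjusted p under 0.05 in limma 4 of these 23 markers were lower in MIX than in CON and 0 higher. Against that, 8.34% of all features were under 0.05 in either direction. The 4 were Msx2 (-1.325, SE 0.26), Sox17 (-1.395, SE 0.42), Pax8 (-0.92, SE 0.35) and Grhl2 (-0.555, SE 0.23).

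Cytokine programmes that are known to drive Sprr2 genes in other epithelia were read next. Of 28 measured genes of the responses to IL-6, IL-17 and IL-22, 25 were higher in MIX than in CON with a median of 0.73 (0.24 without MIX replicate 3), and none passed in limma. Over all features 42.5% were higher, with a median of -0.03. Of the 28, 9 were higher and 0 lower at an unadjusted p under 0.05 in limma, against 8.34% of features in either direction. Il6ra, a receptor chain for IL-6, differed by 0.67 (SE 0.15, adjusted p = 0.3063) and Duoxa2, the maturation factor of an epithelial oxidase, by 3.02 (SE 0.75, adjusted p = 0.3429). Of 21 genes of type 2 cytokines and STAT6 targets 12 were higher, with a median of 0.18 and none passing in limma, while 5 were higher and 0 lower at an unadjusted p under 0.05. The median was 0.035 without MIX replicate 2, 0.095 without MIX replicate 3, 0.11 with HD replicate 2 omitted, 0.31 with MIX replicate 1 omitted and 0.27 without the code style term. Il33, an epithelial alarmin, differed by 2.43 (SE 0.48, adjusted p = 0.2508) and Arg1, arginase 1, by 4.66 (SE 1.48, adjusted p = 0.4429). Il13 ranged from 5.27 to 5.69 and Il4 from 3.40 to 3.66 over all mice, and Il13 differed by -0.19 (SE 0.12).

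Markers of other cells in the scraped tissue also differed. In MIX against CON 17 of 18 macrophage markers (median 1.12), 12 of 16 granulocyte markers (median 0.87) and 10 of 10 mesothelial markers (median 1.16) were higher. So were 12 of 13 stromal markers (median 0.44), and none of these markers passed in limma. Smooth muscle markers were higher in 2 of 10 (median -0.17) and endothelial markers in 9 of 10 (median 0.26). Over all features 42.5% were higher, with a median of -0.03. At an unadjusted p under 0.05 in limma 13 macrophage, 4 granulocyte, 7 mesothelial and 2 stromal markers were higher and 0 lower. No smooth muscle or endothelial marker was under 0.05, against 8.34% of features in either direction. Single mice moved some of these medians. Without MIX replicate 3 the granulocyte median was 0.26. Without CON replicate 3 the stromal median was -0.30, the smooth muscle median 0.15 and the endothelial median 0.066. Without MIX replicate 1 they were 0.89, 0.075 and 0.86, and the mesothelial median was 1.54. The endothelial median was -0.33 without MIX replicate 2. Without E2 replicate 4 the stromal and smooth muscle medians were 0.75 and -0.30, and the smooth muscle median was -0.25 without CON replicate 1, -0.33 without MIX replicate 3 and 0.051 without the code style term. With the replicate number as a block the macrophage and granulocyte medians were 1.95 and 1.54. MIX replicate 2 had the highest endothelial level of all mice (7.65) and MIX replicate 1 the lowest (5.20), and the stromal level was likewise highest in MIX replicate 2 (9.65) and stood at 8.20 in MIX replicate 1. The mean macrophage level was 6.48 to 6.92 in CON, 7.21 to 7.30 in HD, 7.39 to 7.88 in E2 and 7.38 to 8.50 in MIX, and the granulocyte level 4.55 to 4.84, 4.90 to 5.13, 5.22 to 6.36 and 5.22 to 7.39. Both correlated with the members' mean over the 13 mice (0.79 and 0.82), as did the mesothelial level (0.79), while the stromal (0.28), endothelial (-0.05) and smooth muscle (-0.10) levels did so weakly or not. Their part in the members' values was not tested, and in such tissue more cells of a type and more RNA per cell cannot be told apart.

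The genes whose levels followed the members most closely were taken by Pearson correlation with the members' mean over the 13 mice, among 14844 genes brighter than the median feature. The 10 nearest were Il1a (0.96), Bcar3 (0.95), Gda (0.95), Apol7a (0.94), Nabp1 (0.94), Tgm2 (0.94), Bicdl1 (0.94), Irf1 (0.94), Ctsl (0.94) and Muc13 (0.94). In all, 42 genes reached 0.9, and the median over all genes compared was -0.05. Il1a, the alarmin interleukin 1 alpha, was at 4.90 ± 1.35 in CON, 7.29 ± 1.75 in HD, 8.86 ± 1.59 in E2 and 8.69 ± 2.15 in MIX. Tgm2, a transglutaminase, was at 9.69 ± 0.61, 10.7 ± 0.77, 10.9 ± 0.59 and 11.2 ± 0.62, and Muc13, a membrane mucin, at 5.43 ± 0.95, 7.40 ± 1.64, 8.62 ± 0.74 and 10.2 ± 1.10, in the same order. After subtraction of the group means the 10 correlations remained between 0.87 and 0.97. They were picked as the highest of many, so their size describes the choice as well as the mice.

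**Figure D4:**
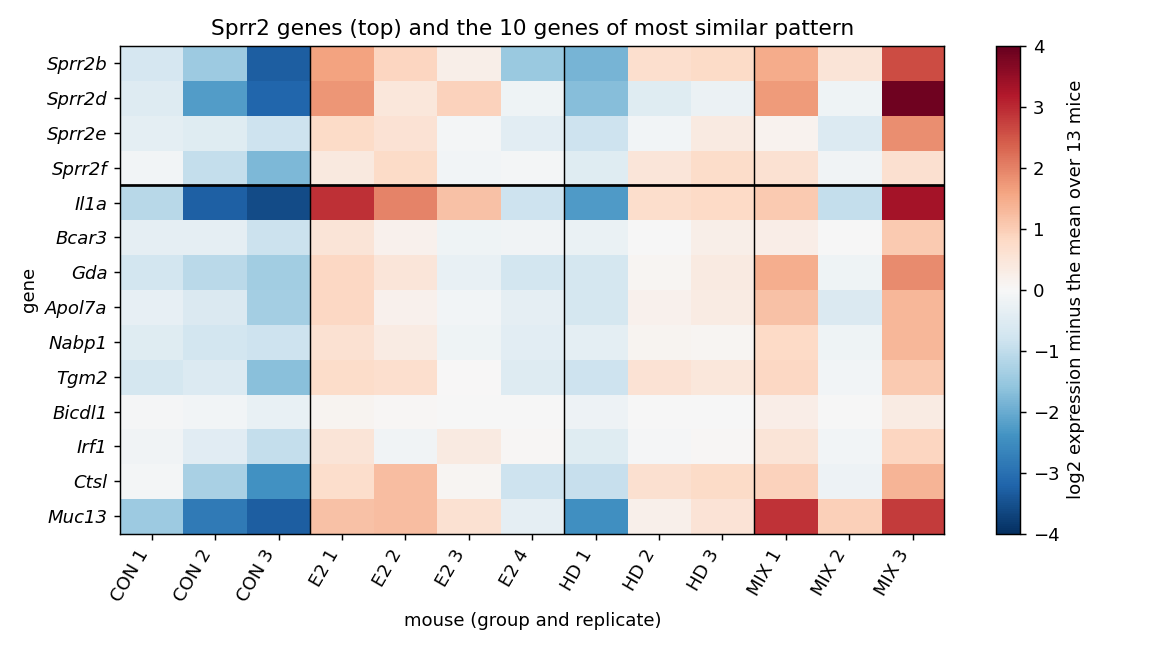
Centred log2 levels of the 4 members and of the 10 genes nearest to their mean (vertical axis) in the 13 mice (horizontal axis, by group), with colour for the deviation from each gene's own mean. CON replicate 3 is low and MIX replicate 3 high in nearly all of them.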

How the data were processed

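Each of 13 mice gave 1 array. The labels' protocols name 250 ng of total RNA and a whole-transcript Affymetrix kit. The authors deposited log2 expression per feature, for which the submitters' processing notes name RMA. This method treats background, distributions and probe summaries over all arrays jointly, so a mouse's values depend on the other mice, and dim features are compressed. The version of RMA, the array library and its build are not stated in these sources. Arrays carry no read depth. Precision is limited by the number of mice.

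All 65929 features entered 1 limma fit (limma 3.58.1, R 4.3.3, 8 residual degrees of freedom, prior 2.225) of 4 groups with the animal-code style as covariate, two-sided. A feature passed at an adjusted p under 0.05 (Benjamini-Hochberg, all features of the array). The fit was tested on simulated data. Features were named through the supplied annotation (30604 with 1 symbol, 2146 with several, 33179 unnamed here), with 827 symbols updated. The members and the 13 gene lists (249 of 266 memberships measured) were chosen with earlier results of these data known. The text names every list gene that passed. From the envelope list and the 2 cytokine lists, where none passed, it names the 2 genes of lowest p in MIX against CON. Agr2 and the estradiol targets and epithelial markers lower there at an unadjusted p under 0.05 in limma are also named. So is every other Sprr gene measured. Macrophage, granulocyte, stromal, smooth muscle, mesothelial and endothelial markers are given only as counts, medians and levels, with no gene named. The transglutaminases, Lor, Ivl, Flg, Il13 and Il4 were added after their values were seen. Nearest patterns leave out Sprr genes and clone-based symbols. Promoters come from the RefSeq table of GRCm38.p6, aligned with Biopython 1.88. A list's level in a mouse is the average of its genes' log2 values.

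Alternatives dropped the code style term, the other groups, a code style, dim features or 1 mouse at a time, used trend and robust eBayes, centred arrays on medians, or added the replicate number as a block.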

Additional observations from a re-analysis of the deposited data

How the results depend on the processing

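Members kept their direction in 527 of 552 alternative values, which reuse the same mice and are not independent of each other. Of the 25 values that turned, 20 were among the 76 of the interaction. None of the 552 passed the threshold, the smallest adjusted p in limma being 0.0959 (Sprr2d, MIX against CON). For E2 against CON, MIX against CON and the averaged pellet no value changed sign. Signs turned for Sprr2e in HD against CON (-0.03 with numbered mice only, -0.11 to 0.75 leaving out 1 mouse), Sprr2f in MIX against HD (-0.37 with lettered mice only), Sprr2e in MIX against E2 (-0.30 to 0.89 leaving out 1 mouse) and the interaction. Without the code style term the interaction was -0.45 for Sprr2b, -0.11 for Sprr2d and -0.11 for Sprr2e, and with lettered mice only -1.06, -0.96 and -0.31. Leaving out 1 mouse it ran from -0.60 to 2.51 (Sprr2b), -0.59 to 1.80 (Sprr2d), -0.68 to 0.84 (Sprr2e) and -1.36 to 0.075 (Sprr2f). Replicate numbers did not pair the mice: 5 of 18 pairs of same-numbered mice correlated above 0.1 in their deviations from group means (-0.26 to 0.31). The replicate block gave -0.29 for Sprr2b in the interaction and 0 calls in each comparison.

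Counts over all features moved in every comparison that had calls. MIX against CON had 2, with 15 without the code style term, 0 with only the groups compared, 0 with lettered mice only, 11 with dim features out, 5 with centred arrays, 0 with the block and 0 to 89 leaving out 1 mouse. MIX against HD had 3, with 12 without the code style term, 0 with only the groups compared, 0 with lettered mice only, 6 with dim features out, 0 with the block and 0 to 80. MIX against E2 had 0, with 1 without the code style term and 0 to 24. The averaged pellet had 11, with 0 with lettered mice only, 7 with trend and robust eBayes, 0 with the block and 0 to 224, and the interaction 0, with 0 to 2. The cause was not tested.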

Other observations

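Taken singly, the members had partly different nearest genes over the 13 mice. Sprr2b lay nearest to Tgm2 (Pearson 0.97), Ctsl (0.95), Arg1 (0.94), Muc13 (0.93) and Gda (0.93). Sprr2d lay nearest to Irf1 (0.97), an interferon-induced transcription factor, and to Clca3b (0.96), Clca3a1 (0.96), Il1f9 (0.96) and Clca3a2 (0.96), of which Il1f9 encodes an epithelial cytokine of the interleukin 1 family. Sprr2e lay nearest to Trim15 (0.96), Rel (0.95), Slc16a3 (0.95), Trim40 (0.95) and Pim1 (0.94), where Rel is an NF-kappa B subunit. Sprr2f lay nearest to Ctsl (0.97), Plac8 (0.93), Egln3 (0.93), Tgm2 (0.92) and Slc11a2 (0.91), where Ctsl encodes the protease cathepsin L. Whether these sets differ between members was not tested, and they are the highest of 14844 correlations.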
